A study of Rattus norvegicus with 6 samples.

Results

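Solitary spliced circles are circular RNAs (circRNAs) whose genomic span overlaps no other circRNA on the same chromosome and strand. They were chosen by position and length among the circles read in these libraries. The spliced sequence had at least 250 and under 1000 nt and was shorter than a span of at least 2000 and under 50000 nt. Of the 32445 circRNAs in the thalamus data, 2597 (8.0%) met this rule. They were set beside 21599 circles of the same length and span range that share their locus with at least 1 other circle. The RNA came from the thalamus of 6 rats, 3 given 50 µL of CFA in both temporomandibular joints and 3 given saline there. CFA is complete Freund's adjuvant, which provokes lasting joint inflammation. The joints were injected 2 times per week and the thalamus was collected at 14 days. Strain, age and sex are not given in the labels, and the model is joint inflammation sampled at 1 time.

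A circRNA forms when the splice donor at the end of a downstream exon is joined to the acceptor at the start of an upstream exon, a reaction called back-splicing. The circle has no cap and no poly(A) tail, and its closed form, without free ends, protects it from exonucleases. Brain tissue is known for its large number of circRNAs, many of them made from genes of neurons. Some genes give rise to many circles with different ends and others to a single one. Exons of mammalian genes most often end in AG and often begin with G, so the bases on both sides of a back-splice junction carry the trace of ordinary exon ends.

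The junction sequences of the 5 most abundant solitary circles are shown because each is the feature that tells a circle from linear RNA. They are given in the direction of the deposited record, whose genome build the sources used here do not name. The capitals mark the last 2 bases and the first base of the spliced sequence, which meet at the junction.
chr8:130762665-130768360, plus strand: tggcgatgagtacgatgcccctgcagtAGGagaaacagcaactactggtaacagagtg
chr9:31437020-31442183, minus strand: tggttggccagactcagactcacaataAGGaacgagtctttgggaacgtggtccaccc
chr6:2599223-2605598, plus strand: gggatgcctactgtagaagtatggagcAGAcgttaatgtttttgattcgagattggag
chr17:54298407-54301447, plus strand: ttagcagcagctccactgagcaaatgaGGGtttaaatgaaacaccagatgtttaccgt
chr2:27326041-27333634, minus strand: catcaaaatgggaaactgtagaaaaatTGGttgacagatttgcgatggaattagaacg

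Of the 10 most abundant members, 7 ended in AG and 6 began with G. Over all 2597 members 55.4% ended in AG (Wilson 95% interval 53.5 to 57.4%), 79.7% ended in G and 45.4% began with G. In shared-locus circles these shares were 56.3%, 79.1% and 44.3%. The intervals treat circles as independent and cover counting error only.

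The libraries held 573696 to 1176178 circRNA reads each, of which 18673 to 36924 fell in solitary circles. The lowest count above 0 was 2, so a listed 0 may stand for 1 read. The deposited identifiers are not paired with host genes in the files used here, and none was assigned. The thalamic origin was for this reason not checked against marker genes. Whether a circle counts as alone depends on which other circles were read, so the class is not independent of read depth. Alone also does not mean sole circle of a gene: 526 members lay within 10000 nt of another circle on the same strand and 27 within 1000 nt. The median distance to the nearest other circle was 54062 nt.

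Of the 4446 circRNAs of any size that were alone at their locus, 313 were unspliced, 689 fell outside the length range and 790 and 57 had spans below and above the limits. At the lower length bound, the member of 250 nt on chromosome 2 had 6 reads in sum and the first circle outside, of 249 nt on chromosome 5, had 24. At the upper bound the members ended at 979 nt, on chromosome 6 with 60 reads, and the next circle of 1022 nt, on chromosome 1, had 15. The members nearest the span bounds had spans of 2005 nt (6 reads) and 49441 nt (141 reads), and the circles just outside had 1999 nt (8 reads) and 50045 nt (12 reads). A circle on chromosome 19 with 3214 reads was left out because the sequence file lists it on both strands, at 43119868 to 43124021 on the minus strand, where it overlaps other circles, and 2 nt further along on the plus strand, where it is alone.

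Solitary circles were a small and mostly faint part of the thalamic circRNAs. They held 3.17% of all circRNA reads, whereas the shared-locus circles of the same range held 70.2%. A member had a median of 14 reads over the 6 libraries, with quartiles of 6 and 39, against a median of 25 reads, with quartiles of 9 and 82, in shared-locus circles. Of the members, 985 (37.9%) were read in 1 library and 404 (15.6%) in all 6. Those 404 nevertheless held 73.3% of the reads of the class. In shared-locus circles 25.8% were read in 1 library and 28.6% in all 6.

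The 10 most abundant members held 21.4% of the solitary reads. The leading one was a 946 nt circle from chromosome 8 that spanned 5696 nt. It had 2510, 1894 and 2684 RPM (reads per 1000000 circRNA reads) in the CFA libraries and 2449, 2721 and 2089 RPM in the saline libraries. Its highest value was in saline replicate 2 and its lowest in CFA replicate 2, so the groups overlapped, at means of 2363 ± 415 RPM in the CFA and 2419 ± 317 RPM in the saline libraries (n = 3 each, ± SD).

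The second, a 334 nt circle from chromosome 9, had 1186, 1426 and 1076 RPM after CFA and 1471, 1070 and 858 RPM after saline. The third, 489 nt from chromosome 6, had 938, 1126 and 899 RPM against 1121, 674 and 1078 RPM. In both circles the saline libraries reached from below the lowest CFA value, and the values of the groups overlapped. The 792 nt circle from chromosome 17 followed with 443, 299 and 557 RPM against 350, 431 and 339 RPM, and the 439 nt circle from chromosome 2 with 353, 364 and 504 RPM against 326, 374 and 403 RPM. The widest spread relative to its mean was that of a 908 nt circle from chromosome 11, 36327826 to 36335676, at 350, 198 and 408 RPM after CFA and 392, 504 and 114 RPM after saline.

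**Figure D1:**
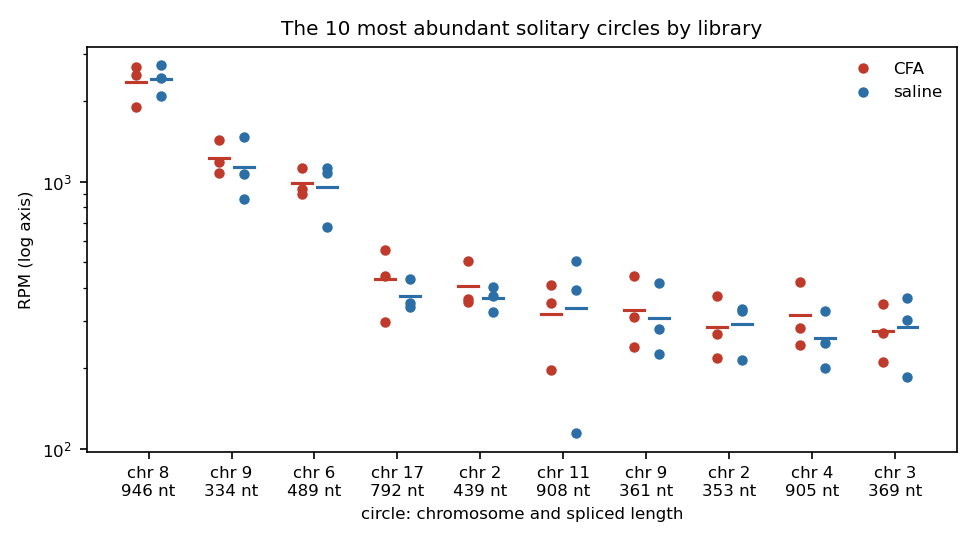
RPM on a log axis for the 10 most abundant solitary circles, 1 point per library and a short line at each group mean (n = 3 each). The leading circle lies between 1894 and 2721 RPM, and in all 10 circles the CFA and saline values overlap.

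The central comparison asked whether joint inflammation changed the level of these circles in the thalamus. Of the 2597 members, 1593 had at least 10 reads in sum and were tested. In edgeR's quasi-likelihood fit, with p-values adjusted by Benjamini-Hochberg over all 22426 circRNAs tested, 0 members were called higher and 0 lower in CFA. Among all circRNAs tested, 28 (0.125%) were called, 0.0624% in each direction. At that background rate a class of this size holds few calls, so the count of 0 sets the class apart from nothing. At an unadjusted p below 0.05 edgeR gave 20 members higher and 20 lower in CFA, 40 in all or 2.51%, against 2.68% of all circRNAs tested (1.23% higher and 1.45% lower). DESeq2 also called 0 members, and 4 circRNAs in all. It gave 24 members (1.51%) an unadjusted p below 0.05, against 379 (1.69%) of all circRNAs tested.

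The RPM of the groups did not overlap in 89 tested members (5.59%), against 6.63% over all circRNAs tested. The median log2 fold change (CFA minus saline) was -0.07 in tested members and -0.05 in all circRNAs tested. The standard error of a member's log2 fold change had a median of 2.17 in members and 1.68 in all circRNAs tested. In the 44 members with reads in all 6 libraries and at least 100 RPM, the median standard error was 0.35. Of these, 39 (88.6%) had a log2 fold change within 0.5 of 0, against 91.6% of all 1658 circRNAs at this abundance. The range in the 44 members was -0.62 to 0.68. For the 10 most abundant it was -0.09 to 0.26, and the smallest Benjamini-Hochberg adjusted p from edgeR was 0.9999.

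Single libraries moved the count of calls. It was 1 member without CFA replicate 1, where 24 of all 21437 circRNAs tested were called, and 1 without CFA replicate 3, where 40 of 20771 were. It was 2 members without saline replicate 1, with 15 of 21673 over all circRNAs, and 1 without saline replicate 3, with 35 of 20826. Without CFA replicate 2 or saline replicate 2 it was 0. On simulated counts of like sparsity this fit made more false calls than its threshold states. On the rats' data with at least 30 counts required, edgeR called 0 of 13949 circRNAs, with 237 at an unadjusted p below 0.05.

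**Figure D2:**
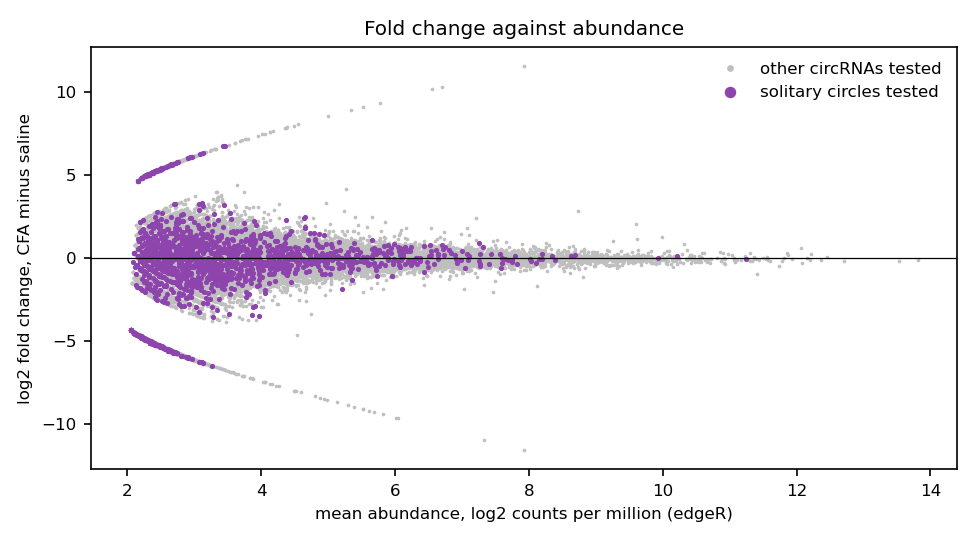
Log2 fold change (CFA minus saline, edgeR) against mean abundance in edgeR's log2 CPM for the 1593 solitary circles tested and all other circRNAs tested. Members lie within the cloud of the other circRNAs, and the 2 curved arms hold circles with no reads in 1 group, whose fitted fold change is no bound.

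A pick by small p favours circles whose groups lie apart, so groups apart in the circles named next are no further support. Among members with at least 50 reads, the 6 with the smallest p toward higher values in CFA were read at 18.1 to 25 RPM on average. The first of them, 355 nt long, came from the minus strand of chromosome 14, 14455620 to 14467922. Its CFA libraries had 37, 26 and 19 reads and its saline libraries 0, 13 and 7. Each CFA library was above each saline library in RPM, at 39.1 ± 17.7 and 6.18 ± 5.64 RPM (SD, n = 3 each). Its log2 fold change was 2.45 ± 0.76 (SE) and did not pass, at an adjusted p of 0.50 (edgeR, Benjamini-Hochberg).

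A 251 nt circle from chromosome 8 was the next, with 10, 44 and 28 reads in the CFA libraries against 14, 0 and 0. The saline library with 14 reads was above the lowest CFA library in RPM. Its log2 fold change of 2.41 ± 0.79 (SE) did not pass (adjusted p = 0.818, edgeR, Benjamini-Hochberg), but it was called without saline replicate 1, at 7.98. On chromosome 9, the 404 nt circle at 30947663 to 30974644 had a like pattern at 15, 24 and 42 reads against 19, 0 and 0, and was likewise called without saline replicate 1. For both of these calls all remaining saline libraries are listed at 0.

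The whole 251 nt circle is shown as an example of what a solitary circle holds, with its first base and its last 2 bases in capitals.
chr8:28018432-28026404, minus strand: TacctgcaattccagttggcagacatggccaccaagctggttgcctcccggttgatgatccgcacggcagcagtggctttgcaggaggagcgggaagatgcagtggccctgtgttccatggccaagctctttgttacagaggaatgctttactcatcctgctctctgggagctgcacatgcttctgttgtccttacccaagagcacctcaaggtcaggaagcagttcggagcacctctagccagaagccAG
It was free of stop codons in 1 of the 3 forward frames, the one that starts at base 3.

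The remaining 3 circles on the higher side with values apart between the groups came from chromosomes 17, 3 and 10. On chromosome 17, 18018619 to 18024175, the 436 nt circle had 20, 19 and 28 reads after CFA against 3, 0 and 12. The circle of 507 nt on chromosome 3, 162834006 to 162851494, had 13, 24 and 45 against 7, 8 and 10 reads, and that of 475 nt on chromosome 10, 15453553 to 15458814, had 34, 11 and 39 against 9, 19 and 6. In each of these 3 the lowest CFA library exceeded the highest saline library in RPM. Their log2 fold changes were 2.28, 1.83 and 1.53, each with an adjusted p of 0.912 (edgeR, Benjamini-Hochberg).

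Toward lower values the smallest p belonged to a 385 nt circle from chromosome 16, 62023411 to 62056753, whose CFA libraries had 4, 0 and 0 reads and whose saline libraries had 33, 21 and 0. The saline library at 0 lay within the CFA range. The next circle by p, 492 nt at 105534039 to 105553143 of chromosome 13, had 0, 4 and 0 against 25, 14 and 12 reads. One of 544 nt at 76266844 to 76269734 of chromosome 2 had 0, 0 and 7 against 13, 19 and 25, and one of 476 nt at 121640072 to 121645519 of chromosome 4 had 2, 0 and 4 against 12, 37 and 10. In these 3 the groups did not overlap. The circle on chromosome 2 was also the member farthest from any other circle on its strand, at 3052294 nt.

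The best-read circle of the lower side was 566 nt long and lay at 70516918 to 70532390 of chromosome 13, plus strand. Its CFA libraries had 30.5, 38.4 and 28.8 RPM and its saline libraries 73.2, 88.4 and 40.6 RPM, with no overlap and a log2 fold change of -1.09 ± 0.50 (SE). A 620 nt circle from chromosome X had 12, 29 and 5 reads against 7, 59 and 87, where the groups overlapped. All 6 had an adjusted p of 0.912 (edgeR, Benjamini-Hochberg) and did not pass.

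As a whole, solitary circles took the same share of the reads in both groups within the spread of the libraries. They held 3.25%, 3.06% and 3.30% of the reads in the CFA libraries and 3.25%, 3.14% and 3.06% in the saline libraries. The means were 3.2 ± 0.13% and 3.15 ± 0.0999% (SD, n = 3 each), with p = 0.7 in an exact permutation test, two-sided like all tests here. No p under 0.1 is possible with 3 rats against 3. Of the reads of solitary and shared-locus circles together, the solitary ones took 4.36 ± 0.189% and 4.30 ± 0.164% (SD, n = 3 each; p = 0.7, exact permutation test). This difference of 0.058 percentage points changed sign without CFA replicate 3 (-0.007) and without saline replicate 3 (-0.024).

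After thinning each library to 573696 reads, the CFA libraries showed 1105 ± 125 members with 2 or more reads and the saline libraries 1165 ± 221 (SD, n = 3 each; p = 0.7, exact permutation test). Single libraries ranged from 914 in saline replicate 1 to 1334 in saline replicate 2. After thinning, the 6 libraries still stood in the order of their original depth, so the numbers seen are not free of it. Without CFA replicate 2 or saline replicate 2 the difference turned to 5.08 and 24.5 more members in CFA.

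Set against shared-locus circles of the same length and span range, solitary circles were read less often in every library. A library showed 35.2 to 59.3% of the solitary circles and 48.0 to 69.9% of the shared-locus circles. The difference was -12.1 percentage points on average, in the same direction in 6 of 6 libraries (exact sign-flip permutation test over libraries, p = 0.0312, the smallest that 6 pairs can give). The median RPM of the circles seen was also lower in 6 of 6 libraries, at 0.730 times the shared-locus value (exact sign-flip permutation test, p = 0.0312). With any 1 library left out this test cannot go below 0.0625, and the differences stayed between -12.4 and -11.8 percentage points and between -0.49 and -0.43 on the log2 scale. The same circles were counted in all 6 libraries, so this test speaks of these libraries and not of other sets of circles. The classes also rest on which circles were read in these same libraries. The difference in reads is thus not independent of how the classes were formed.

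**Figure D3:**
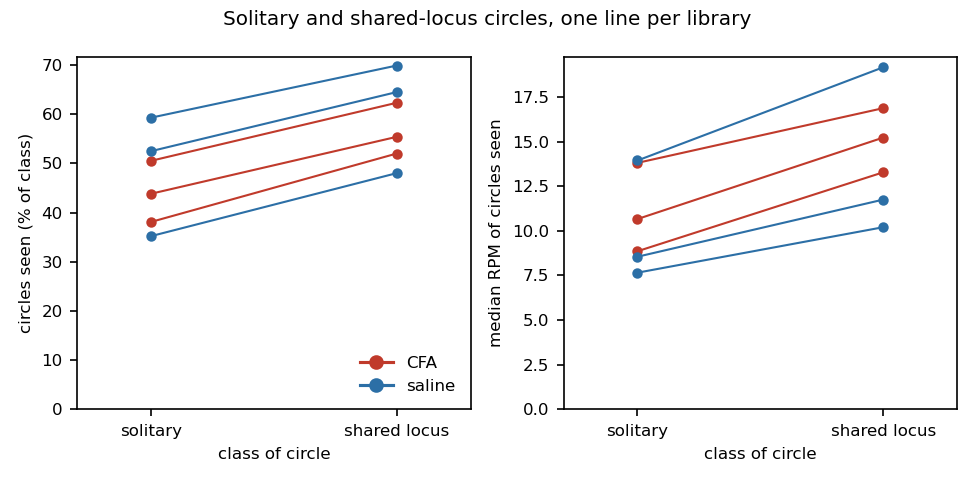
Left, the percent of each class of circle seen in a library; right, the median RPM of the circles seen. Each line joins the values of 1 library, and all 6 lines rise from solitary to shared-locus circles in both panels.

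The gap was wider against the leading circles, those with the most reads at their shared locus. Only leading circles in the length and span range were used, for 4015 of the 4876 loci with shared-locus circles of this range. They were picked for their reads, so a wider gap was built into the pick. These 4015 leading circles had a median of 116 reads and 60.2% of them were read in all 6 libraries. At equal read numbers the classes were closer. Of circles with 30 to 99 reads, 31.5% of 521 members and 34.1% of 5322 shared-locus circles were read in all 6 libraries, and of circles with 100 to under 300 reads 83.2% of 184 and 89.7% of 2783.

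A listed 0 was rare among well-read circles of either class. For circles whose median over the other 5 libraries was 50 RPM or more, 9 of 648 values of solitary circles (1.39%) and 116 of 13509 values of shared-locus circles (0.859%) were 0. The solitary share was the higher in 4 of 6 libraries, and the difference of 0.526 percentage points did not pass (exact sign-flip permutation test, p = 0.219). With a minimum of 20 RPM the difference was 1.43 percentage points and passed in the same exact test (p = 0.0312). The classes were not matched in RPM above this minimum. Of circles with reads in all 6 libraries, 138 members and 2190 shared-locus circles had 20 to under 50 RPM. At 100 RPM or more there were 44 and 1225. Within groups, the spread of log2 RPM in circles with reads in all 6 libraries and at least 100 RPM had a median SD of 0.378 in 44 members and 0.360 in 1225 shared-locus circles.

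A few solitary circles were read well in some rats and listed at 0 in the rest, in both treatment groups. Of 541 members with at least 50 reads, 10 (1.85%) had reads in only 2 or 3 libraries, and 66 of 7574 shared-locus circles (0.871%) had reads in 1 to 3. The median sum of all circles with at least 50 reads was 100 in members and 132 in shared-locus circles. These circles were picked after their values were seen, and no test was made. All 10 members had reads in both groups. The junctions of the 3 best-read ones are shown, with capitals as above.
chr8:68539308-68542150, plus strand: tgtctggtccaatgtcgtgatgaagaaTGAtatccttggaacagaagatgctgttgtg
chr11:45487965-45497839, minus strand: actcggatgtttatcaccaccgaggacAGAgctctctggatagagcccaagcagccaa
chr7:123967753-123978899, plus strand: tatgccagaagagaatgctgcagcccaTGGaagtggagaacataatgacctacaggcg

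The 275 nt circle from chromosome 8 had 176, 0 and 279 reads in the CFA libraries and 0, 345 and 0 in the saline libraries. The 3 libraries with reads belonged to both groups, and the nearest other circle on its strand was 1429621 nt away. A further pair of members, from chromosome 4 (11, 0 and 25 against 0, 27 and 0 reads) and chromosome 15 (9, 0 and 14 against 0, 29 and 0), were read in the same 3 libraries. Among all circRNAs, 14 of the 100 with at least 50 reads in 3 libraries had this combination.

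The 274 nt circle from chromosome 11 had 113, 0 and 0 reads in the CFA libraries against 77, 0 and 0. The 291 nt circle from chromosome 7 had 56, 0 and 0 against 77, 0 and 0, and a 397 nt circle from chromosome 9 had 0, 0 and 32 against 0, 0 and 60. Each of these 3 was thus read in the libraries of 1 replicate number. Among all circRNAs, 6 of the 38 with at least 50 reads in 2 libraries had equal numbers, and the deviations of same-numbered libraries from their group means were not correlated (r from -0.07 to 0.02 across circRNAs).

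**Figure D4:**
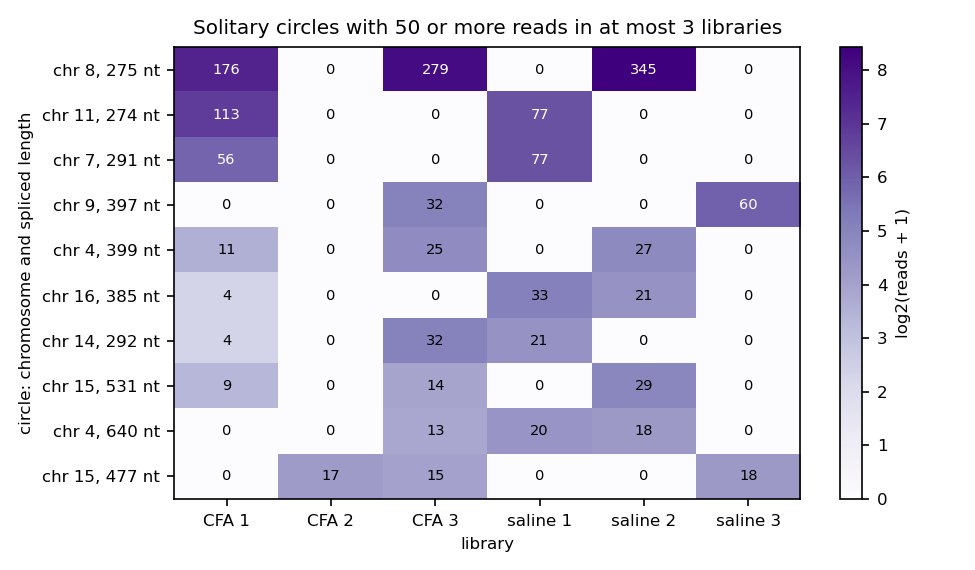
Read counts in each library for the 10 solitary circles with at least 50 reads that were read in at most 3 libraries, shaded by log2(reads + 1). Rows mix CFA and saline libraries, and the chromosome 8 circle of 275 nt alternates between 0 and 176 to 345 reads.

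The median GC content of solitary circles was above that of shared-locus circles, though not among the best-read ones. It was 49.8% (quartiles 45.6 and 53.6%) against 47.3% (43.9 and 50.9%), and their adenine content 27.2% against 28.6%. In the 17 members with 1000 or more reads the median GC content was 45.5%, against 46.9% in 606 shared-locus circles. They were also shorter, with a median of 372 nt against 402 nt, and spanned less of the genome, with a median of 6632 nt against 12864 nt. These are values of the circles themselves and were not tested.

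The GC content of members fell with the span, from a median of 51.2% at spans of 2000 to under 4000 nt to 49.9%, 49.2% and 48.1% in the longer classes, from 4000, 8000 and 16000 nt. In shared-locus circles it was 48.1%, 47.7%, 47.1% and 47.2%. The solitary median was the higher in each of these classes of span, and the median number of reads the lower, at 13, 14, 12 and 17 against 21, 23, 23 and 29. An adenine run of 8 or more, which oligo-dT beads could hold, was present in 1.27% of members and 1.23% of shared-locus circles.

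**Figure D5:**
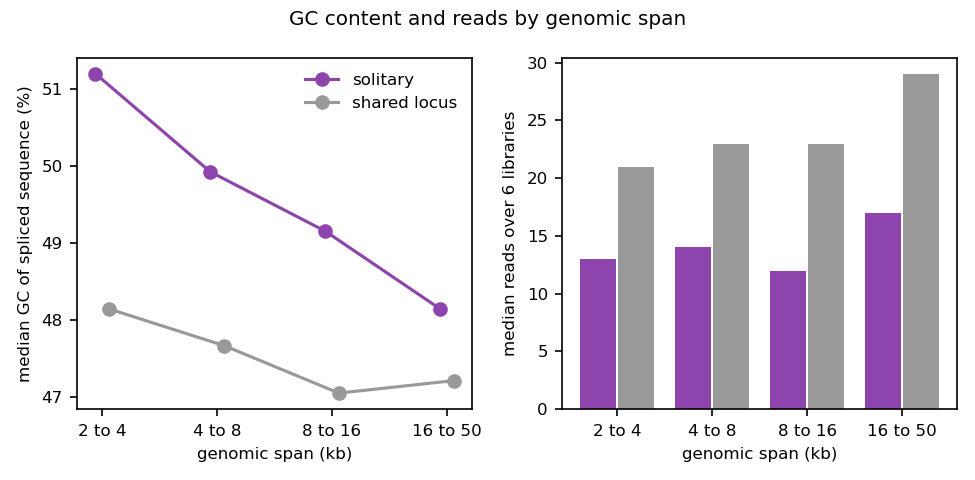
Median GC content of the spliced sequence (left, axis not from 0) and median reads over the 6 libraries (right) by genomic span. At each span solitary circles are higher in GC and lower in reads than shared-locus circles.

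Reading frames were compared in circles of like length. Of the 2028 members of 300 to 600 nt, 50.9% were free of stop codons in at least 1 forward frame and 6.02% in at least 1 frame of the reverse complement. In 16654 shared-locus circles the shares were 51.3% and 3.64%. At like GC content the forward share was lower in members up to 55% GC, at 41.8% against 46.2% below 45% GC, 45% against 49.7% from 45 to 50% and 54.5% against 56.4% from 50 to 55%. At 55% GC and above it was 64.8% against 64.5%. The Wilson 95% intervals of these forward shares overlapped between the classes at each level of GC content. Below 45% GC they were 37.1 to 46.6% in members and 44.9 to 47.6% in shared-locus circles. From 45 to 50% GC they overlapped little, at 41.0 to 49.0% in members and 48.5 to 51.0% in shared-locus circles. Overlap of intervals is no test of a difference, and none was made. The reverse share grew with GC content in both classes, from 1.45% below 45% GC to 13.3% at 55% and above in members, and from 1.13% to 10.9% in shared-locus circles. Over all lengths, an endless frame, free of stop codons around the whole circle, was present in 20.2% of members and 18.5% of shared-locus circles.

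Predicted miRNA binding was part of the study's plan. A miRNA recognises RNA mainly through its seed, bases 2 to 8, and some circles are known to carry many sites for 1 miRNA. The mature rat sequences (RefSeq, GRCr8) of 4 of the 15 miRNAs searched are given here, with the seed in capitals, because the members named next carry their sites or because the miRNA is known for binding to a brain circRNA.
miR-146a-5p: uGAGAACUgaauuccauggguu
miR-128-3p: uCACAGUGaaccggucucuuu
miR-103-3p: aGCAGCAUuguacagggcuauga
miR-7a-5p: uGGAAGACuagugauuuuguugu

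No seed was frequent in solitary circles. The share of members with at least 1 match, searched on the given strand and across the junction, ranged from 1.27% for miR-21-5p to 6.39% for miR-128-3p. In shared-locus circles it ranged from 1.93% to 6.21%, and the solitary share was the lower for 12 of the 15 miRNAs, in circles that are also shorter. Per 1000 nt the solitary value was the lower for 10. Of the 2597 members, 41 had 2 or more matches to 1 seed, and shared-locus circles with 2 or more were counted for each miRNA only. A single one had 3, for miR-103-3p, in a circle from chromosome 19 that had 3 reads in 1 library. Shared-locus circles reached 4, for miR-138-5p. For miR-128-3p, 9 of 2597 members and 54 of 21599 shared-locus circles had 2 or more, and for miR-103-3p 7 and 72. For miR-7a-5p, 85 members (3.27%) had a match, against 3.72% of shared-locus circles, and 1 member had 2.

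The best-read members with 2 matches were a 492 nt circle from chromosome 1 for miR-146a-5p, a brake on innate immune signalling, and a 558 nt circle, also from chromosome 1, for miR-128-3p, a miRNA of neurons. Their sites are shown with the bases that pair with the seed in capitals.
chr1:41834768-41838187, base 44: agcataaccAGTTCTCcctgggcgt
chr1:41834768-41838187, base 392: acgtgcggcAGTTCTCcagctggat
chr1:161519506-161523421, base 375: ggcctcccaCACTGTGgctattcca
chr1:161519506-161523421, base 425: ggaagcagaCACTGTGctgtcccct
The 492 nt circle had 27, 37 and 66 reads in the CFA libraries against 17, 44 and 44, and the 558 nt circle 16, 27 and 14 against 24, 48 and 32. The values of the groups overlapped in both, and neither passed (log2 fold changes of 0.54 and -0.58, adjusted p of 1.0, edgeR, Benjamini-Hochberg). Such matches describe the letters of a circle and are no evidence of binding.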

How the data were processed

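CircRNA reads were counted in 6 thalamus libraries, grouped by the sample titles. Purification was with poly-T beads, cDNA was primed with random hexamers, and PCR followed, with no molecular identifiers named, per the labels' protocols. Circles have no poly(A) tail, and the share of them kept by these beads is not known. The counts therefore speak only of the circles that were kept. The submitters' processing notes name DESeq2 1.20.0, featureCounts 1.5.0-p3, StringTie 1.3.3b and HISAT2 2.0.5, without their roles. Neither a genome build nor a circRNA caller is named in the sources used here. The deposited table holds raw read counts, per the file headers, and values named TPM that the authors scaled per 1000000 reads without a length term, which makes them RPM. All RPM in the text were recalculated as counts over library totals. Positions and sequences come from the deposited sequence file, with 1 added to starts counted from 0. Of 44 identifiers with 2 records the first was used.

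edgeR 4.0.16 (R 4.3.3; TMM, robust quasi-likelihood fit, CFA against saline) was run on all 22426 circRNAs with at least 10 reads, with Benjamini-Hochberg adjustment and a threshold of 0.05. Its script was tested on simulated data, where the share of false calls exceeded the nominal one. Approximate standard errors were obtained by dividing each log2 fold change by the square root of its F. DESeq2 1.42.0 was an alternative, and the other alternatives are named in the closing section. Values per library were compared with exact permutation tests, over libraries between groups and by sign flips within libraries between classes. Thinning was repeated 20 times. The p-values between groups rest on the spread between libraries, in which rat, depth and preparation cannot be told apart. Those of the sign flips rest on within-library differences between the same sets of circles. Named members were those past the threshold, the 6 per direction with the smallest p among those with at least 50 reads, the 10 most abundant and those at the bounds of the rule, and any others were picked after their values were seen. Host genes, planned with gene lists, could not be assigned and are not analysed here, and miR-124-3p was not used here. The members and lists were chosen with earlier results of these data known.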

Additional observations from a re-analysis of the deposited data

How the results depend on the processing

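The count of solitary circles called was 0 with RLE size factors, library totals alone, DESeq2, no filter, a minimum of 30 counts, a non-robust fit and filterByExpr, and at an unadjusted p below 0.05 these gave 7 (filterByExpr) to 45 members, or 1.5 to 2.82% of those tested, against 1.41 to 2.72% of all circRNAs. It was also 0 for members alone on both strands. It was 0 to 2 when 1 library was left out. With the replicate block 1 member was called, among 45 of all 22426 circRNAs (28 without it). It was a 317 nt circle from chromosome 13 with 29, 0 and 0 reads in the CFA libraries against 56, 36 and 34, which was also the one called without CFA replicate 1 (log2 fold change -8.49, edgeR adjusted p 6.60e-07). Same-numbered libraries did not deviate together (r of 0.023, -0.0024 and -0.071), so the numbers give no sign of pairing. The 12 members named for a small p kept their direction in all 165 alternatives. These refit the counts from which the 12 were picked, so a kept direction is no independent support for them.

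The difference in the share of all reads lay between 0.004 and 0.125 percentage points when 1 library was left out. The difference in the solitary share of both classes lay between -0.024 and 0.166, and that in members seen between -185 and 24.5. The contrasts of solitary and shared-locus circles lay between -12.4 and -11.8 percentage points seen, between -0.49 and -0.43 in log2 median RPM and between 0.311 and 1.10 percentage points of zeros. Against leading circles only, the first 2 were -36.3 and -1.72, but these circles were picked for their reads. With a minimum of 20 RPM the zeros differed by 1.43 percentage points. Settings with at least 10 reads, members alone on both strands or 10000 nt apart, and an added one that counts the chromosome 19 circle as solitary, kept the direction of each of these results. Depth limits the rest: 1004 of 2597 members had fewer than 10 reads and were not tested.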
